A study of Mus musculus with 10 samples.

Results

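MYC and the genes of ribosome biogenesis were examined in activated T cells that lack KLF13. The group was a list of 44 genes, made up of Myc and its partner Max, RNA polymerase I subunits and factors, and nucleolar proteins that modify, cut and fold ribosomal RNA and assemble it with ribosomal proteins. A gene was measured where probe sets naming it alone were present in both array tables, which held for 42 of the 44, among 19048 genes measured in both. All 42 were bright enough to be tested, among 12485 genes tested. Npm3 had only probe sets that also name its pseudogene, and Noc2l is not analysed here.

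The cells were CD3+ T cells from the spleen of male Balb/C mice aged 12 weeks. They were cultured for 4 days with plate-bound antibody against CD3 and soluble antibody against CD28. These stimulate the T cell receptor and the main co-stimulatory receptor. There were 5 wild-type mice (WT1 to WT5) and 5 KLF13 KO mice (KO1 to KO5), and both genotypes had the same stimulation and culture. KLF13 is a zinc-finger transcription factor. The kind of allele, and whether KLF13 was lost only in T cells, are not stated in the labels. Values are log2 signals of Affymetrix arrays. Replicates 1 to 3 were in a table of exon-level probe sets and replicates 4 and 5 in a table of gene-level probe sets, normalized separately; they are called the exon-level and the gene-level arrays here. Replicate 1 lay on a lower scale than replicates 2 and 3, so knockout was compared with wild type within 3 sets of arrays (replicate 1, replicates 2 and 3, and replicates 4 and 5), and the comparison over all arrays took the set as a block.

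Growing T cells make ribosomes at a high rate. In the nucleolus RNA polymerase I transcribes ribosomal DNA into a long precursor, small nucleolar RNPs (snoRNPs) modify it, and large sets of assembly factors turn it into the small and large subunits. MYC, which binds DNA as a dimer with MAX, is induced soon after T cell receptor stimulation and is known to raise the transcription of many of these genes. The microarray measures transcript signal only. It does not measure ribosomal RNA, ribosome number or MYC protein, and in a bulk sample fewer cells that express a gene and less RNA per cell cannot be told apart.

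Arrays differed in ways that touch these genes. KO3 had an interquartile range of 1.49 log2 units over the tested genes, where the remaining arrays of replicates 1 to 3 had 2.11 to 2.34. KO2 differed from wild type at the top of the scale, as KO3 did. The brightest 1% of tested genes began at 10.30 in KO2 and 10.37 in KO3, against 11.29 and 11.32 in WT2 and WT3. Markers of T cells were at the top of the signal range, with 7 of 8 measured, between percentiles 98.0 and 99.9 of all genes in the exon-level table. Measured markers of B cells (6 of 7) and myeloid cells (8 of 8) lay at median percentiles of 42.4 and 30.5 there, those of NK cells (5 of 5) at 15.5, and 2 of 6 erythroid markers at 42.3. Klf13, the targeted gene, had log2 signals of 6.03, 6.95, 6.89, 7.21 and 7.54 in WT1 to WT5 and of 5.41, 6.16, 6.07, 6.21 and 6.46 in KO1 to KO5. It was lower in each set, by -0.62, -0.81 and -1.05 log2 units, and passed over all arrays (-0.86 ± 0.12, SE, 5 arrays against 5, limma adjusted p = 0.0127). That call ended without WT2 (adjusted p = 0.0689), WT3 (0.0507), WT4 (0.0558), KO4 (0.0641) or KO5 (0.0539).

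No member was called changed over all arrays. The 42 differences, knockout minus wild type, lay between -0.68 (Nop56) and -0.16 (Max), with a median of -0.32 log2 units, and each was below 0. Over all tested genes 63.5% of differences were below 0 and the median was -0.10. In limma 0 of 42 members passed an adjusted p of 0.05, beside 73 of all genes (0.585%), of which 12 were higher and 61 lower (0.489%) (15 and 29 after quantile normalization within each set). The members' adjusted p ranged from 0.176 to 0.592. At an unadjusted p under 0.05, 15 members were lower and 0 higher, beside 12.8% of all genes lower. The 95% confidence interval of the difference lay above -1, a 2-fold reduction, for 41 of the 42, with Nop56 as the exception, and it included 0 for 27.

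The size of the difference depended on the array. The members' median difference from the wild-type mean of the set was -0.07 in KO1, -0.37 in KO2, -1.01 in KO3, -0.14 in KO4 and -0.08 in KO5. KO3 was the lowest of the 5 knockout arrays for 37 of 42 members, and 51.4% of all genes had their lowest difference there. All 42 members were below the wild-type mean in KO3, 39 in KO2, 31 in KO4, and 30 each in KO1 and KO5. Of all tested genes, 63.8% were below it in KO3, 68.3% in KO2, 55.6% in KO4, 53.5% in KO1 and 49.9% in KO5. By comparison, the wild-type arrays of a set differed from each other by a median of -0.04 over the members (WT2 minus WT3) and 0.13 (WT4 minus WT5). In size, the median of KO5 was below that difference between WT4 and WT5, and that of KO4 was just above it. KO4 and KO5 were set against a wild-type mean, while the wild-type difference is one between single arrays. Replicate 1 had no second wild-type array, and the median of KO1 was larger in size than that between WT2 and WT3.

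**Figure D1:**
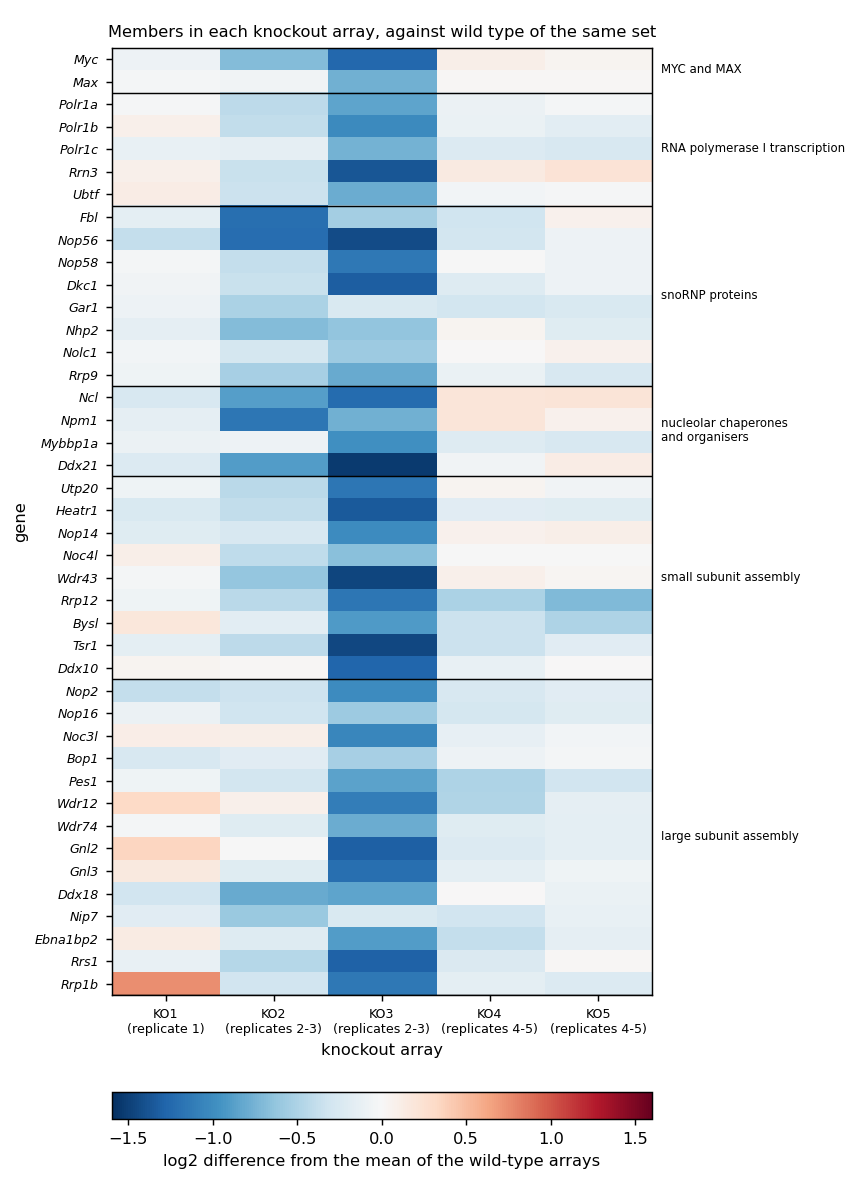
Log2 difference of each of the 42 measured members (rows, by role) in each knockout array (columns) from the mean of the wild-type arrays of its set; blue is lower in knockout. The KO3 column is blue throughout and KO2 mostly so, while KO1, KO4 and KO5 are mostly pale; Rrp12 is blue in KO4 and KO5, and Rrp1b is red in KO1 (0.75).

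Over all arrays, bright genes as a whole had differences close to those of the members. The median member lay at percentile 89.4 of signal among tested genes in the exon-level table and at 77.2 for the gene-level arrays. The 2562 brightest genes, those at or above percentile 75 of signal in both tables, had a median difference of -0.28 over all arrays, beside -0.32 for the members. In KO3 these values were -0.86 and -1.01, in KO2 -0.33 and -0.37, in KO1 -0.09 and -0.07, in KO4 -0.09 and -0.14, and in KO5 -0.02 and -0.08. Over all arrays 94.7% of the 2562 had a difference below 0, beside 42 of 42 members. At an unadjusted p under 0.05 in limma, 833 of the 2562 were lower, beside 15 members. In replicates 4 and 5 the 2562 had a median of -0.06 with 61.5% below 0, beside -0.12 and 78.6% for the members. Their median signal percentile was 89.1 for the gene-level arrays, above that of the members. Across all 12485 genes the difference correlated with the signal percentile at r = -0.63 in KO3, -0.46 in KO2 and -0.08 in KO5. In KO1 and KO4 this r was -0.13 and -0.14. Among the members it was -0.41, -0.39, -0.24, 0.41 and 0.39 in KO1 to KO5. Genes of an array share its labelling and scale and are not independent. Without KO3 the members' median was -0.17, beside -0.04 for all genes, with 41 of 42 below 0.

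**Figure D2:**
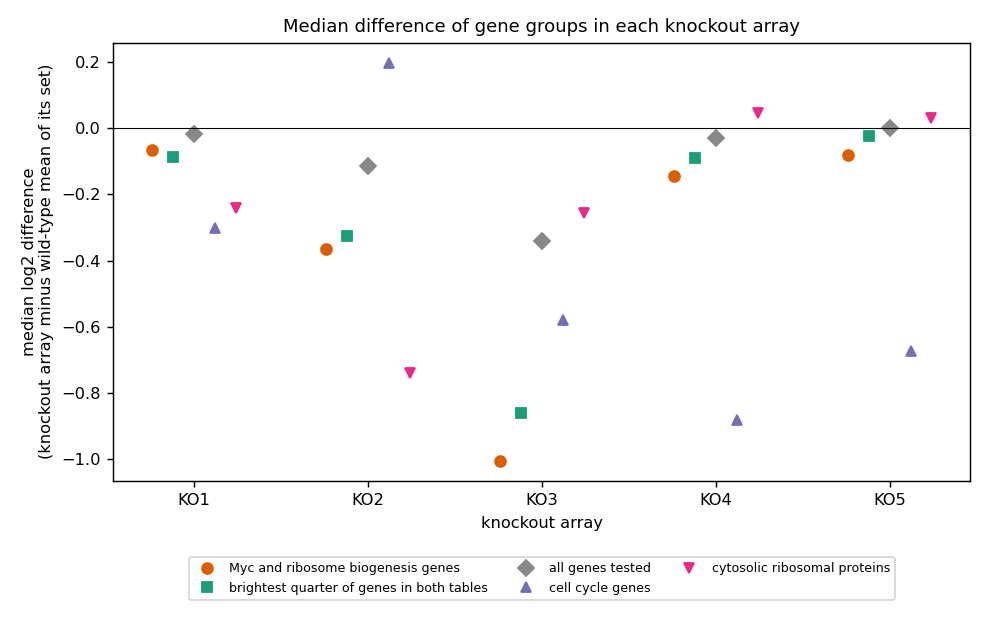
Median log2 difference of gene groups in each knockout array from the wild-type mean of its set. The members lie near the 2562 brightest genes, with the lowest median of both in KO3 (-1.01 and -0.86), while cell cycle genes are lowest in KO4 and cytosolic ribosomal proteins in KO2.

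Quantile normalization within each set, which gives all arrays of a set the same distribution, reduced the members' median over all arrays from -0.32 to -0.08, and 37 of 42 stayed below 0, with a median of 0.0046 over all genes. Cyclic loess within each set, which removes differences that follow brightness and was added after the data had been seen, reduced it to -0.05, with 35 of 42 below 0 and a median of 0.0049 over all genes. In replicates 2 and 3 the members' median went from -0.67 to -0.20 and -0.13 under these normalizations, and that of the brightest genes from -0.59 to -0.07 and -0.01. In replicates 4 and 5 the members' median went from -0.12 to -0.07 under both. Replicate 1 had -0.07 before and -0.01 and 0.00 after. None of these settings called a member over all arrays, and the sign of some members turned under them.

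**Figure D3:**
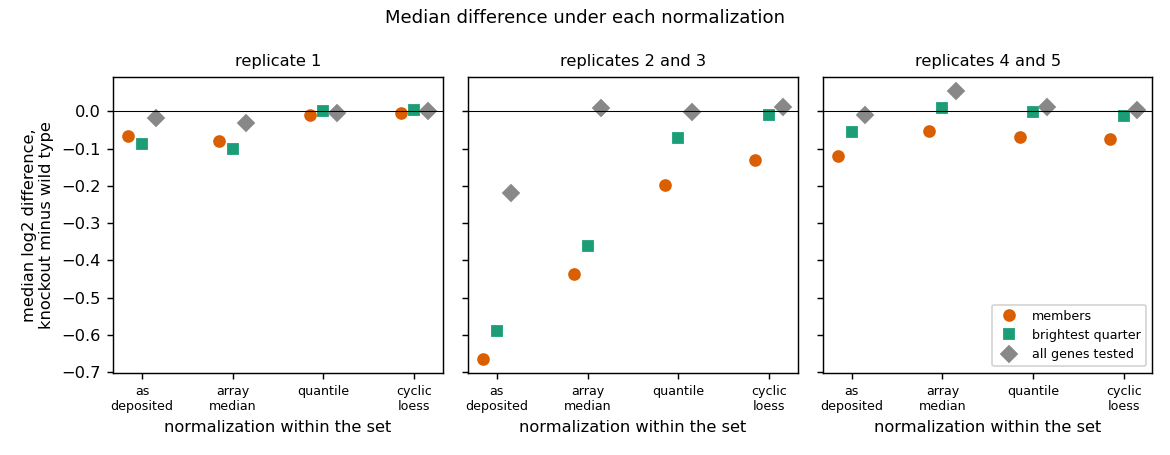
Median log2 difference (knockout minus wild type) of the members, the 2562 brightest genes and all genes tested, for each set of arrays and each normalization within the set. In replicates 2 and 3 the members' median moves from -0.67 on the deposited scale to -0.13 after cyclic loess.

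Myc itself was not called changed, and its difference had opposite signs in the 2 tables. Its log2 signals were 9.60 in WT1 against 9.52 in KO1, 10.75 and 10.66 in WT2 and WT3 against 10.01 and 9.44 in KO2 and KO3, and 9.05 and 9.04 in WT4 and WT5 against 9.14 and 9.08 in KO4 and KO5. Both knockout arrays were below wild type in replicates 2 and 3, and both were above it in replicates 4 and 5. The difference over all arrays was -0.38 ± 0.19 (SE, 5 against 5, limma adjusted p = 0.368), with a 95% interval from -0.80 to 0.04. In the gene-level table it was 0.07 (interval -0.20 to 0.34). All 3 exon-level probe sets of Myc were lower in KO2, by 0.42 to 0.88 in size, and in KO3, by 1.04 to 1.58, while in KO1 they were at -0.21, -0.15 and 0.11. After cyclic loess the difference of Myc was 0.0028.

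Max, the partner that MYC needs to bind DNA, was at 7.80 in WT1 and 7.78 in KO1, at 9.05 and 9.06 in WT2 and WT3, at 9.0025 and 8.28 in KO2 and KO3, at 8.57 and 8.47 in WT4 and WT5, and at 8.54 and 8.545 in KO4 and KO5. KO3 alone stood apart. The difference of -0.16 ± 0.15 (SE, 5 against 5, adjusted p = 0.564 in limma) turned to 0.065 after quantile normalization.

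**Figure D4:**
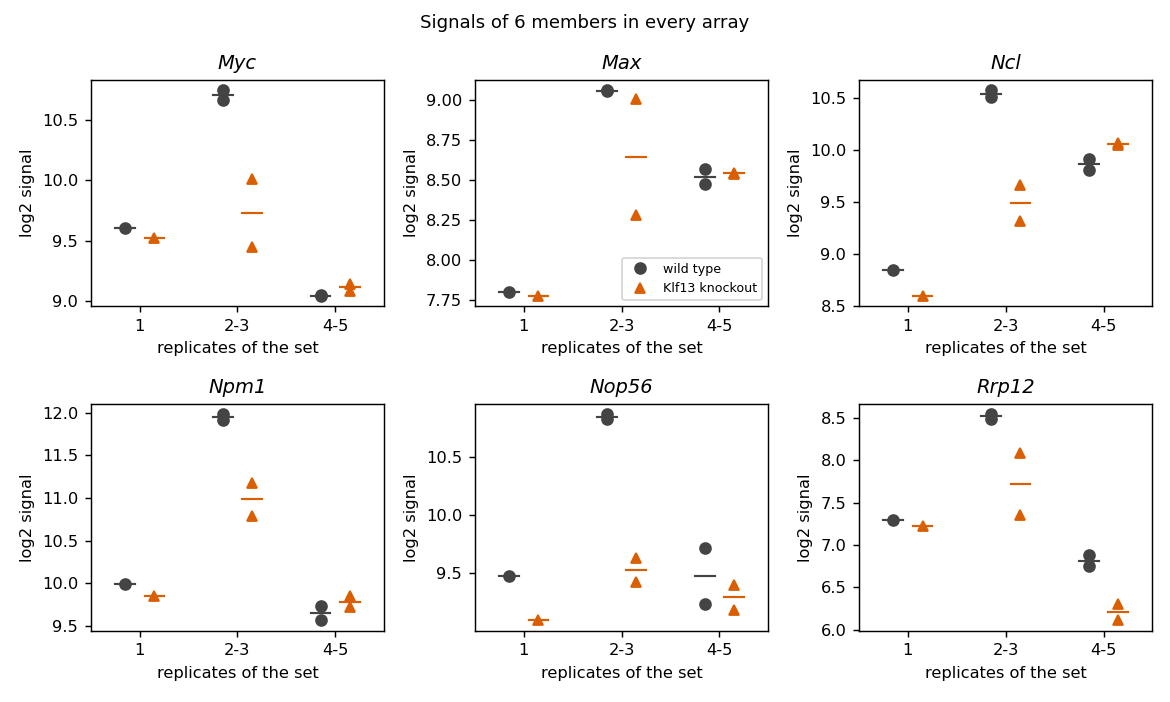
Log2 signal of Myc, Max, Ncl, Npm1, Nop56 and Rrp12 in every array, by set; circles are wild type, triangles Klf13 knockout, short lines the group mean. The knockout arrays lie under wild type in replicates 2 and 3 for all 6 genes, but in replicates 4 and 5 only Rrp12 is lower without overlap.

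The E-box CACGTG, the site that MYC-MAX dimers are known to bind, was searched for in promoter windows from 250 bases before to 50 after the annotated start (RefSeq, GRCm38.p6). Windows were at hand for 37 of the 44 members, Myc not among them, and some genes have several. The motif is its own reverse complement, so a match covers both strands. It was present for 8 of 37 members (21.6%), beside 8.09% of all 27025 genes of the table and 11.5% of the 10053 tested genes with a window. GGGCGG on either strand, the GC box bound by SP and KLF factors, was present for 30 members (81.1%), beside 67.1% of the tested genes with a window; it can overlap the E-box by a single letter at either end. Sites are shown because the E-box is the sequence by which MYC-MAX dimers recognise DNA; capitals mark the E-box, and each sequence runs 5′ to 3′ on the strand of the gene.
Nop2, chr6:125131796-125131855, plus strand: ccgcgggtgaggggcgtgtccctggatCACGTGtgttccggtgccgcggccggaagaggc
Rrn3 distal, chr16:13780457-13780516, plus strand: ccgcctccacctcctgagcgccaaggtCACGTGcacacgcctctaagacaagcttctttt
Rrn3 proximal, chr16:13780624-13780683, plus strand: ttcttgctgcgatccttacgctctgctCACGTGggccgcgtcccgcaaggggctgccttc
Max, chr12:76962234-76962263, minus strand: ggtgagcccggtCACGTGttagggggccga
Pes1, chr11:3963965-3963994, plus strand: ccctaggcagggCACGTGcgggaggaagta
Wdr43, chr17:71616220-71616249, plus strand: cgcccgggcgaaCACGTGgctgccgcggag
Tsr1, chr11:74898092-74898121, plus strand: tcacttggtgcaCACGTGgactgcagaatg
The sites of Nop2 and Rrn3 lie before the start, that of Max across it, and those of Pes1, Wdr43 and Tsr1 just after it; Utp20 and Mybbp1a also have a site after the start.

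Members with and without the E-box were set side by side. The 8 with the motif had a median difference of -0.36 over all arrays, and the 27 measured members with a window and no motif had -0.29. By set the medians were -0.07 and -0.04 in replicate 1, -0.73 and -0.63 in replicates 2 and 3, and -0.11 and -0.14 in replicates 4 and 5. Among tested genes the medians were -0.13 with the motif and -0.10 without. These are descriptions with no test, and a motif match is not a measured binding site.

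The RNA polymerase I group (Polr1a, Polr1b, Polr1c, Rrn3 and Ubtf) had 0 of 5 members called, with a median difference of -0.28 over all arrays and of 0.08, -0.63 and -0.07 in the 3 sets. Polr1c, a subunit shared by RNA polymerases I and III, had 8.07 in WT1 and 7.95 in KO1, 9.33 in both WT2 and WT3 against 9.18 and 8.57 in KO2 and KO3, and 7.82 and 7.96 in WT4 and WT5 against 7.67 and 7.63 in KO4 and KO5. It was lower in every knockout array, without overlap in any set, by -0.30 ± 0.14 over all arrays (SE, 5 against 5, limma adjusted p = 0.330). Polr1a, the largest subunit, was at 6.81 and 6.79 in WT1 and KO1, at 8.28 and 8.36 against 7.90 and 7.48 in replicates 2 and 3, and at 6.82 and 6.59 against 6.61 and 6.67 in replicates 4 and 5, where the groups overlapped. Its difference over all arrays was -0.28 ± 0.15 (SE, 5 against 5, limma adjusted p = 0.373).

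Polr1b, the second-largest subunit, was higher in KO1 (7.19) than in WT1 (7.10), lower in KO2 and KO3 (7.98 and 7.35) than in WT2 and WT3 (8.26 and 8.48), and at 6.82 and 6.75 in KO4 and KO5 against 7.06 and 6.80 in WT4 and WT5. Over all arrays it was at -0.32 ± 0.17 (SE, 5 against 5, limma adjusted p = 0.374). In KO1, 11 of the 15 probe sets of Polr1b were below wild type. A single one, at 10.05 in KO1 against 4.74 in WT1, was 5.31 above it. Ubtf, the factor that opens ribosomal DNA for transcription, had 7.76 against 7.88 in replicate 1, 9.16 and 9.03 against 8.75 and 8.30 in replicates 2 and 3, and 8.15 and 8.11 against 8.09 and 8.11 in replicates 4 and 5, wild type first. Its groups overlapped in replicates 4 and 5, with a difference of -0.03, and its difference over all arrays was -0.22 ± 0.15 (SE, 5 against 5). Rrn3, which recruits the polymerase to the promoter, was at 0.08, -0.86 and 0.18 in the 3 sets.

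Among the 8 snoRNP proteins 0 were called, and 8, 8 and 7 of them were below 0 in the 3 sets. Nop56, a core protein of box C/D snoRNPs, which guide 2′-O-methylation, had the lowest difference of all members. It read 9.47 in WT1 and 9.09 in KO1, 10.82 and 10.87 in WT2 and WT3 against 9.63 and 9.42 in KO2 and KO3, and 9.72 and 9.24 in WT4 and WT5 against 9.19 and 9.40 in KO4 and KO5. Knockout was lower without overlap in the first 2 sets and overlapped wild type in replicates 4 and 5. The difference was -0.68 ± 0.20 over all arrays (SE, 5 against 5, adjusted p = 0.194 in limma) and -0.19 in replicates 4 and 5. In replicates 1 to 3 without KO3 it was -0.86 and passed (limma adjusted p = 0.0197), with a single knockout array left in replicates 2 and 3. The same fit called 426 of all 12485 genes, 316 of them lower, against 0 with KO3 kept.

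Other snoRNP proteins had smaller differences. Rrp9, a protein of the U3 snoRNP that acts in the first cuts of the precursor, was at 7.53 against 7.47 in replicate 1, at 8.96 and 8.99 against 8.44 and 8.17 in replicates 2 and 3, and at 7.48 and 7.51 against 7.39 and 7.25 in replicates 4 and 5, wild type first. Gar1, a core protein of box H/ACA snoRNPs, which guide pseudouridylation, was at 7.82 against 7.73, at 9.64 and 9.50 against 9.07 and 9.32, and at 7.96 and 7.99 against 7.68 and 7.73. Both were lower in all 5 knockout arrays without overlap within a set, by -0.35 ± 0.13 (adjusted p = 0.274) and -0.28 ± 0.11 (0.290; SE, 5 against 5, limma). Gar1 turned to 0.0060 after cyclic loess. Nolc1, a chaperone of snoRNPs, had the difference nearest 0 of its group (-0.16), with 7.65 against 7.61, 8.59 and 8.58 against 8.31 and 8.01, and 7.37 and 7.29 against 7.33 and 7.40.

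The remaining snoRNP proteins were Fbl (the 2′-O-methyltransferase), Nop58, Dkc1 (the pseudouridine synthase) and Nhp2. Their differences over all arrays lay between -0.43 and -0.32, with adjusted p from 0.297 to 0.405 in limma. In replicates 4 and 5 they lay between -0.14 and -0.04.

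The abundant nucleolar proteins split by table. Ncl (nucleolin), Npm1 (nucleophosmin, a histone and ribosome chaperone) and Ddx21 (an RNA helicase of the nucleolus) had differences below 0 in replicates 1 to 3 and above 0 in replicates 4 and 5. Ncl had 8.85 in WT1 and 8.59 in KO1, and 10.51 and 10.58 in WT2 and WT3 against 9.67 and 9.31 in KO2 and KO3. In replicates 4 and 5 it was at 9.91 and 9.81 in wild type and at 10.05 and 10.07 in knockout, higher without overlap. Its difference was -0.39 ± 0.20 over all arrays (SE, 5 against 5, adjusted p = 0.371 in limma).

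Npm1 differed by -0.15, -0.97 and 0.13 in the 3 sets, and Ddx21 by -0.22, -1.21 and 0.03. Over all arrays Ddx21 was at -0.52 ± 0.22 (SE, 5 against 5, limma adjusted p = 0.304). Its signals were 9.26 against 9.04, 10.98 and 10.88 against 10.04 and 9.40, and 9.27 and 9.04 against 9.10 and 9.27. Npm1 was at 0.18 after quantile normalization and at 0.13 after cyclic loess, where all arrays together gave -0.36 on the deposited scale. Mybbp1a, a nucleolar MYB-binding protein, was on the other side in replicates 4 and 5. It was lower without overlap in each set, at 8.54 against 8.44, 9.73 and 9.72 against 9.64 and 8.74, and 8.37 and 8.23 against 8.10 and 8.04, for a difference of -0.32 ± 0.16 (SE, 5 against 5, limma adjusted p = 0.369).

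The difference between tables was itself tested, as an interaction of genotype and table with the set as block. In limma 0 of 42 members passed (adjusted p from 0.872 to 0.999), as for all genes (0%), and 6 members had an unadjusted p under 0.05, beside 5.27% of all genes. These were Myc, Nop56, Ncl, Npm1, Ddx21 and Ddx18, each with the higher difference in replicates 4 and 5 and 0 with the lower one, beside 1.35% of all genes. Over all members 3 of 42 had the lower difference there, beside 4788 of all 12485 genes, whose median difference between tables was 0.10. Of the 2562 brightest genes, 282 had the lower difference there, and 294 had an unadjusted p under 0.05 in this interaction. Their median difference between tables was 0.36, beside 0.33 for the members. The split of the nucleolar proteins between tables thus did not pass.

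Small subunit assembly held the only call among the members. Rrp12, a factor of pre-40S assembly and export, had 7.29 in WT1 and 7.22 in KO1, 8.54 and 8.49 in WT2 and WT3 against 8.09 and 7.36 in KO2 and KO3, and 6.88 and 6.75 in WT4 and WT5 against 6.30 and 6.11 in KO4 and KO5. It was lower without overlap in each set. In replicates 4 and 5 it fell by 0.61 ± 0.13 on the log2 scale (SE, 2 arrays against 2, limma adjusted p = 0.0461), to 0.656 of the wild-type level. Over all arrays it was at -0.57 ± 0.16 (adjusted p = 0.176), and without KO3 it passed there too (-0.43, adjusted p = 0.0465), in a fit that called 362 of all genes in place of 73. The call in replicates 4 and 5 ended without WT4 (adjusted p = 0.107), KO4 (0.0694) or KO5 (0.214), without the filter on dim genes (0.0506), and after quantile normalization (0.0622), subtraction of array medians (0.0615) or cyclic loess (0.0577).

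That call was 1 of 42 members in replicates 4 and 5, beside 339 of 12485 genes called there (2.72%), 249 lower (1.99%) and 90 higher (0.721%) (230 and 164 after subtraction of array medians). A share of 1 in 42 is near that background. At an unadjusted p under 0.05, 3 members were lower (Rrp12, Bysl and Pes1) and 0 higher, beside 10.1% of all genes lower. The members' median in that table was -0.12, with 33 of 42 below 0, beside -0.01 and 52.5% over all genes. Without WT4 it was -0.01, with 24 of 42 below 0, beside a median of -0.04 over all genes. Without WT5 it was -0.22, with 38 of 42 below 0, beside 0.01. After subtraction of array medians it was -0.05, with 25 of 42 below 0, beside 0.06.

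**Figure D5:**
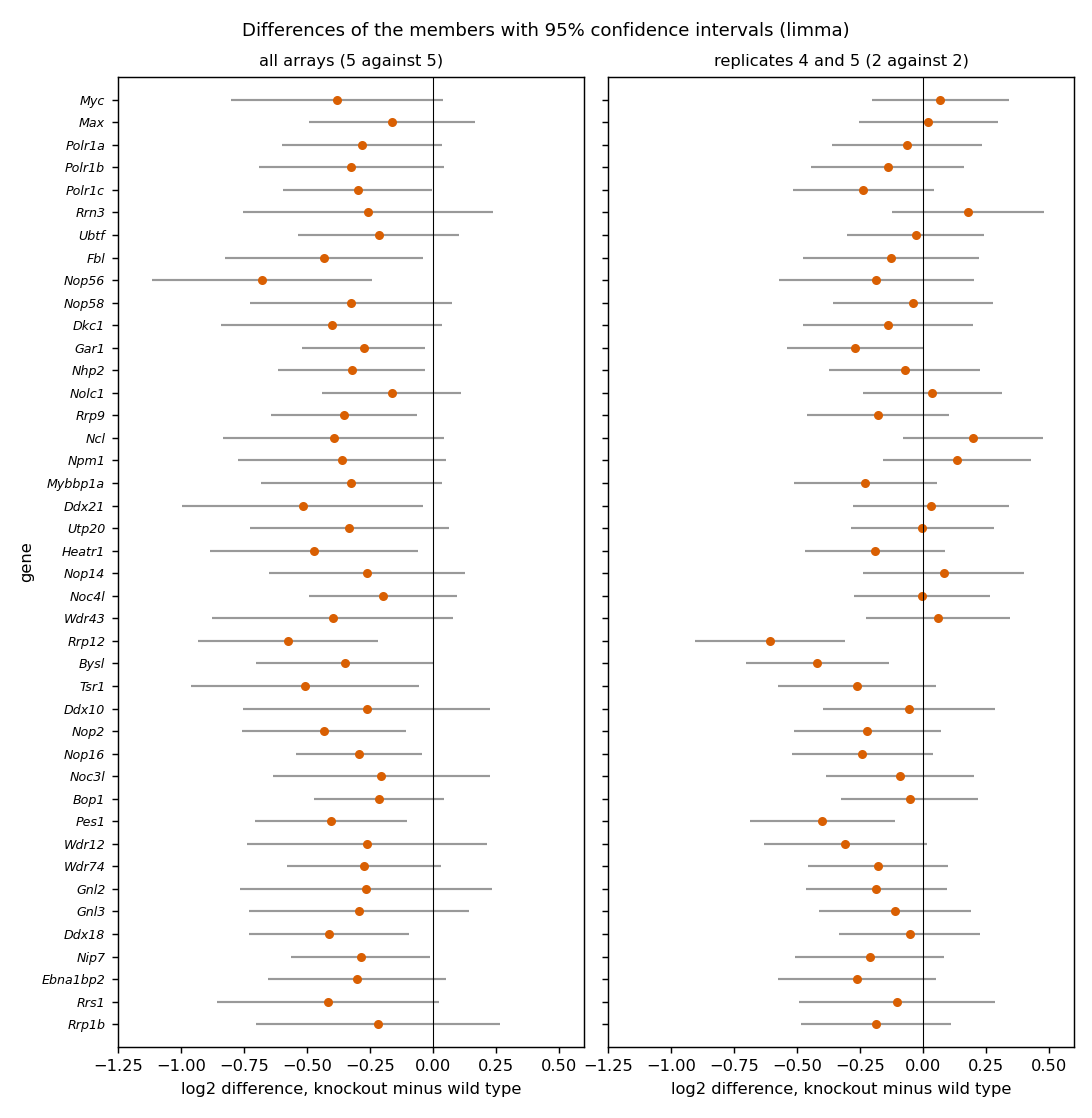
Log2 difference (knockout minus wild type) of each of the 42 members with its 95% confidence interval from limma, over all arrays (left) and in the gene-level table alone (right). In the left panel 27 intervals include 0, and in the right panel 39 do; Rrp12, Bysl and Pes1 are the exceptions on the right.

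Heatr1 and Tsr1 were next by p among the 9 small subunit factors. Heatr1, a scaffold of the small subunit processome, was at 8.22 against 7.98, 9.46 and 9.62 against 9.14 and 8.19, and 7.71 and 7.59 against 7.46 and 7.45, wild type first. Tsr1, which binds late pre-40S particles, was at 8.31 against 8.16, 9.62 and 9.96 against 9.37 and 8.34, and 7.89 and 7.64 against 7.43 and 7.58. Both were lower without overlap in each set (-0.47 ± 0.19 and -0.51 ± 0.21, SE, 5 against 5, limma adjusted p = 0.287 and 0.292), and for both KO3 had the lowest difference from the wild-type mean of its set.

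Noc4l, a nucleolar complex protein of the small subunit, had the difference nearest 0 of its group (-0.20 ± 0.13, SE, 5 against 5), with 7.51 against 7.60, 8.53 and 8.57 against 8.14 and 7.88, and 7.63 and 7.62 against 7.62 and 7.62. Bysl, a late pre-40S factor, was at 0.18, -0.54 and -0.42 in the 3 sets, and in the gene-level table its adjusted p was 0.127 in limma. Utp20, Nop14, Wdr43 and Ddx10 had differences of -0.40 to -0.26 over all arrays, and between -0.06 and 0.08 in the gene-level table.

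The 14 measured large subunit factors had 0 calls over all arrays and 14 of 14 below 0 in replicates 4 and 5 (52.5% of all genes), where their median was -0.19. Nop2, a methyltransferase of the large subunit's RNA, was at 8.02 against 7.64 in replicate 1, at 9.15 and 9.13 against 8.81 and 8.14 in replicates 2 and 3, and at 7.52 and 7.33 against 7.17 and 7.24 in replicates 4 and 5. Of the 16 probe sets of Nop2, 11 were below wild type in KO1, a single one of them at -3.43. Pes1, which forms the PeBoW complex with Bop1 and Wdr12, was at 7.94 against 7.87, at 9.27 and 9.23 against 8.95 and 8.39, and at 8.03 and 7.97 against 7.51 and 7.69. Both were lower in all 5 knockout arrays without overlap, by -0.43 ± 0.15 and -0.40 ± 0.14 (SE, 5 against 5, adjusted p = 0.247 for each in limma).

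Of the other PeBoW proteins, Bop1 was below wild type without overlap in each set as well, at -0.26, -0.35 and -0.05. Wdr12 was at 0.32, -0.51 and -0.31, so it was above wild type in replicate 1. Ddx18, a helicase of large subunit assembly, had 8.85 against 8.55, 10.09 and 9.99 against 9.23 and 9.19, and 8.39 and 8.30 against 8.35 and 8.24. Its difference was -0.41 ± 0.14 (SE, 5 against 5, limma adjusted p = 0.257), with overlap only in replicates 4 and 5.

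Noc3l had the difference nearest 0 of the large subunit factors (-0.20 ± 0.20, SE, 5 against 5), with 6.50 against 6.61, 8.05 and 8.29 against 8.26 and 7.13, and 6.32 and 6.12 against 6.08 and 6.17, and it overlapped in both larger sets. Without KO3 its difference was 0.011. Rrp1b read 0.75 higher in KO1 than in WT1, the highest difference of any member in any array, and was at -0.73 and -0.19 in the other sets. In KO1, 6 of the 15 probe sets of Rrp1b were below wild type. Nop16, Wdr74, Gnl2, Gnl3, Nip7, Ebna1bp2 and Rrs1 lay between -0.42 and -0.27 over all arrays.

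Taking every set, 13 of 42 members had all knockout arrays below all wild-type arrays in each of the 3 sets. So did 10.8% of all genes, and 625 of the 2562 brightest genes. By set the count of members was 30 in replicate 1 (1 array against 1, beside 53.5% of all genes), 38 in replicates 2 and 3 (43.1%) and 18 in replicates 4 and 5 (26%). Above wild type without overlap were 12, 0 and 3 members, beside 46.5%, 11.7% and 20.3% of all genes. Rrn3 was above wild type without overlap in 2 sets, and 0 members were in all 3, beside 1.63% of all genes. In replicates 1 to 3 alone limma called 0 of 42 (0% of all genes), with 11 members at an unadjusted p under 0.05, all lower, beside 7.11% of all genes lower. Of the 2562 brightest genes, 626 had an unadjusted p under 0.05 in that fit, in either direction.

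The 42 members had 663 probe sets (1 to 63 per gene, median 15). Of these, 400 (60.3%) were below wild type in KO1, 570 (86.0%) in KO2 and 576 (86.9%) in KO3. The share over all exon-level probe sets was not computed. Of all tested genes, each averaged over its probe sets, 53.5%, 68.3% and 63.8% were below wild type in these arrays. In replicates 2 and 3, 96.8% of the 2562 brightest genes had a difference below 0. Polr1a had the widest spread, with mean differences of its 37 probe sets in KO2 and KO3 from -3.89 to 1.98 around a median of -0.54, followed by Mybbp1a (-2.57 to 2.47, 24 probe sets) and Utp20 (-4.16 to 0.81, 63 probe sets). For 5 members KO2 and not KO3 was the lowest array: Fbl, Gar1, Nhp2, Npm1 and Nip7. They had a median of 6 probe sets, against 16 for the 37 with KO3 lowest.

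Genes that act with the members were set beside them. Of 108 other ribosome assembly factors listed, 105 were tested, and 0 were called in either direction, with a median of -0.27 over all arrays and of -0.07, -0.53 and -0.14 in the 3 sets. Senp3, a SUMO protease of the nucleolus, had the smallest p (-0.42 ± 0.11, SE, 5 against 5, limma adjusted p = 0.132), with -0.28, -0.46 and -0.45 by set. Of 27 tested subunits and factors of RNA polymerases I and III outside the members 0 were called (median -0.22). Taf1d, of the promoter selectivity factor of RNA polymerase I, had the smallest p (-0.63 ± 0.19, adjusted p = 0.204) and fell in the gene-level table (-0.76, limma adjusted p = 0.0250).

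Genes widely used as MYC targets outside ribosome assembly had a median of -0.34 over all arrays (43 tested, 0 called), and of -0.03, -0.53 and -0.19 in the sets. Paics, an enzyme of purine synthesis, was the member of smallest p, at -0.79 ± 0.19 (SE, 5 against 5, limma adjusted p = 0.111). Replicates 4 and 5 held a single call among the 43, the importin Kpna2 (-1.18, adjusted p = 0.0129). The other MYC network factors, such as the MXD and MLX proteins, had a median of -0.05 (14 tested, 0 called), with Mlx at -0.29 ± 0.11 (adjusted p = 0.278). In the gene-level table Usp28, a deubiquitinase of MYC, rose by 0.61 (limma adjusted p = 0.0427). Kpna2, Usp28 and Taf1d in that table were chosen after their values were seen.

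Cytosolic ribosomal proteins, the proteins that the members assemble, had a median of -0.22 over all arrays and of -0.24, -0.57 and 0.06 in the sets (52 of 79 tested, 0 called). Many have near-identical pseudogenes, and probe sets may share signal between copies. Rpl29 had the smallest p (0.70 ± 0.22, SE, 5 against 5, limma adjusted p = 0.221). By array their median was lowest in KO2 (-0.74), against -0.26 in KO3, so they did not have their lowest value in the same array as the members.

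Cell cycle genes, which rise with T cell growth as ribosome genes do, were ordered otherwise across arrays. Their median was -0.30 in KO1, 0.20 in KO2, -0.58 in KO3, -0.88 in KO4 and -0.67 in KO5 (29 tested). In replicates 4 and 5, 15 of the 29 were called lower (limma adjusted p under 0.05), beside 1 of the 42 members and 1.99% of all genes. The mean log2 signal of the 29 was 8.01 in WT4 and 7.57 in WT5, against 6.95 and 7.10 in KO4 and KO5. The count of calls among them without WT4 is not given here. By sign, 29 of the 29 and 33 of the 42 members were below 0 there. Examples of the calls were Aurka (-1.11, adjusted p = 0.00698) and Mki67 (-0.97, 0.0191, limma), both chosen after their values were seen. Over all arrays 0 of 29 were called, and Pcna, the sliding clamp of replication, had the smallest p (-0.76 ± 0.15, SE, 5 against 5, limma adjusted p = 0.0555). In KO4 and KO5 the members' medians were -0.14 and -0.08.

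T cell markers, like the members, were lowest in KO2 and KO3. Their median difference (7 tested) was -0.31 in KO1, -0.64 in KO2, -0.85 in KO3, 0.04 in KO4 and 0.10 in KO5, and Cd3g had the smallest p (-0.89 ± 0.26, SE, 5 against 5, limma adjusted p = 0.190). The mean log2 signal of the measured T cell markers was 11.05 and 11.07 in WT2 and WT3, 10.17 and 10.14 in KO2 and KO3, and between 10.09 and 10.28 in the 4 arrays of replicates 4 and 5. That of B cell markers was 5.59 and 5.61 in WT2 and WT3 against 5.65 and 5.82 in KO2 and KO3, and that of myeloid markers 5.18 and 5.06 against 5.32 and 5.36. For NK cell markers it was 4.71 and 4.63 against 4.61 and 4.97. The lists differ in brightness, with median percentiles of 98.5 for T cell, 42.4 for B cell and 30.5 for myeloid markers in the exon-level table. Across all genes the difference fell with signal percentile in KO2 (r = -0.46) and KO3 (r = -0.63). Among tested genes Blk, Csf1r, Eomes and Alas2 had the smallest p of the B cell, myeloid, NK cell and erythroid lists, with differences of 0.25, 0.20, 0.02 and 0.24 and 0 called in any of these lists. The part of cell composition in the differences of the markers and of the members was not tested, nor was that of signal level in those of the markers.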

How the data were processed

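The authors deposited log2 signals made with RMA, per the submitters' processing notes; no version of it is named in the labels. The table of replicates 1 to 3 had 241576 exon-level probe sets, and that of replicates 4 and 5 had 35556 gene-level ones. Symbols came from the platform tables, older ones updated through RefSeq (GRCm38.p6). Probe sets naming several genes or none were left out. Exon-level probe sets of a gene were averaged, and of gene-level probe sets the brightest was taken. Genes whose mean log2 signal reached percentile 30 in both tables were tested.

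Differences, standard errors, 95% intervals and 2-sided p-values came from limma 3.58.1 (lmFit, eBayes; R 4.3.3), with Benjamini-Hochberg adjustment over all 12485 genes tested and a threshold of 0.05. The set of arrays was a fixed block. Tables were also fitted alone and compared by an interaction. The fit was tested on simulated data, and the outcome is not given here. Depth is not defined for arrays; their number limits the precision.

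Values in every array are given for Klf13, Myc, Max and, per role, the up to 3 members of smallest p and the member farthest in the other direction; of other lists, the gene of smallest p. Members, lists, roles, the set block and the rule for named genes were chosen with earlier results of these data known. Settings tried were other blocks, normalizations, summaries and filters, eBayes with trend and robust, and leaving out each array.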

Additional observations from a re-analysis of the deposited data

Results flagged for a closer look

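For each measured member, for their median and for Klf13, the 5 knockout differences from the wild-type mean of the set were examined for an array whose gap to the nearest other exceeded 0.71 of the whole range (Dixon's 95% value for 5 samples). Of 44 groups 11 had such an array, and each time it was KO3 and the lowest. Chance marks about 1 in 20 groups where the 5 values are independent and of one distribution. These differences came from both tables and 3 sets, and arrays of a set shared a wild-type mean, so that rate does not apply. Members of an array are not independent either. The differences of KO3 were -1.45 for Tsr1, -1.35 for Heatr1, -1.32 for Dkc1, -1.26 for Ddx10, -1.20 for Gnl3, -1.04 for Noc3l, -1.003 for Nop2, -0.98 for Mybbp1a, -0.79 for Wdr74, -0.77 for Max and -0.76 for Polr1c. The interquartile range of KO3 over tested genes was 1.49, the lowest of the exon-level arrays.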

How the results depend on the processing

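Over all arrays the count of members called was 0 under each alternative tried except without KO3, where it was 1 (Rrp12); leaving out single arrays gave 0 to 1. The members' median ranged from -0.41 to -0.17 when single arrays were left out. In the exon-level table the count was 0 to 3 without single arrays, the 3 being Nop56, Ncl and Ddx18 without KO3, where 426 of all 12485 genes were called (316 lower) in place of 0. In the gene-level table it went from 1 to 0 after quantile normalization, subtraction of array medians, cyclic loess (added after the data were seen) and without the filter on dim genes, and was 0 to 1 without single arrays. Klf13 was at -0.86 with the table as block and did not pass (limma adjusted p = 0.9998). Without single arrays its difference was -0.93 to -0.79. Signs of uncalled members turned after quantile normalization for Max (0.065), Ubtf (0.0088), Nolc1 (0.037), Npm1 (0.18) and Noc4l (0.0027), after cyclic loess for Myc (0.0028), Max (0.085), Ubtf (0.029), Gar1 (0.0060), Nolc1 (0.060), Npm1 (0.13) and Noc4l (0.021), and without KO3 for Noc3l (-0.34 to 0.011 without single arrays). Over all genes the count of 73 became 44 with quantile normalization, 31 with the median of probe sets, 4 with the table as block, and 12 to 362 without single arrays, and that of the interaction went from 0 to 121 without KO3. The causes were not tested.

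With the replicate number as replicate block the count of members called was 0 over all arrays, 0 in the exon-level table, 1 in the gene-level table and 0 in the interaction, while over all genes the count went from 73 to 23 over all arrays, from 0 to 48 in the exon-level table and from 339 to 660 in the gene-level table. Same-numbered arrays share only a number, and their deviations correlated at -0.42 (replicates 2 and 3) and -0.24 (replicates 4 and 5). Crossing the numbers in the gene-level table called 938 genes, beside those 660, 1 of them a member. The number of arrays, and signal over background for dim genes, limit every value.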

Other observations

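Among cytosolic ribosomal proteins, Rps4x was at -0.73, -2.32 and 0.05 in the 3 sets (limma adjusted p = 0.227 over all arrays, 5 against 5). Rpl29 was at 0.64, 1.20 and 0.22.
Rps4x was chosen after its values were seen.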
